A study of Mus musculus with 8 samples.

Results

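The Ly6 genes encode small cell-surface proteins of the Ly6/uPAR family, most of them held to the membrane by a glycosylphosphatidylinositol (GPI) anchor. The array's files name 5 of the 6 members described here, Ly6c, Ly6a, Ly6d, Ly6e and Ly6i, on 6 probes out of 41174. No probe is named Ly6c1, but 1 of the 2 probes named Ly6c carries the RefSeq accession of Ly6c1 and is called the Ly6c1 probe below. The other is called the second Ly6c probe. Members were chosen by the gene name in the scanner files and not by a rule on the measured values, though earlier results of these data were known.

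Ly-6C-high monocytes, a subset of inflammatory phagocytes, were sorted from the spleen (4 samples) and the blood (4 samples) of untreated female C57BL/6 mice, an inbred strain. The mice were 8 to 12 weeks old, ate chow, and numbered 4 for the study, with both tissues taken from them. In both groups the sort gate took cells with high Ly-6C and high CD11b, and kept only those low for CD90, B220, CD49b, NK1.1, Ly-6G, CD11c, I-Ab and the macrophage antigen encoded by Adgre1. Each sample of 1000 cells gave RNA with an integrity number of at least 8, of which 5 ng was amplified, labelled with Cy3 and hybridized to a 1-colour array. The comparison of spleen with blood asks how the splenic cells differ from circulating cells of the same subset, and P-values measure only the spread between these samples.

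The Ly-6C antigen that defines these cells is encoded by the near-identical genes Ly6c1 and Ly6c2. Ly6a encodes Sca-1, known as a marker of blood stem cells and as an interferon-induced antigen of activated leukocytes. Ly6e, also induced by type I interferon, is known for its effect on the entry of several viruses. Ly6d is a marker of early B lineage cells and of plasmacytoid dendritic cells, and Ly6i is a close relative of Ly6c that is expressed in bone marrow and macrophages. Because Ly-6C protein was itself a gate, the values for Ly6c RNA describe cells already chosen for that protein. No probe is named Ly6c2 or Ly6g, and whether the Ly6c probes also bind Ly6c2 RNA was not tested.

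All 6 probes lie within 283 kb of mouse chromosome 15, at the positions the files give on build mm7. The Ly6c1 probe is at chr15:75125832-75125891 on the minus strand, and the second Ly6c probe, annotated with an mRNA of a Ly-6C variant, is at chr15:75125619-75125674 on the same strand, 157 bases away. Ly6a is probed at chr15:75075673-75075732 (minus strand), Ly6i at chr15:75063588-75063647 (minus), Ly6e at chr15:75039587-75039646 (plus) and Ly6d at chr15:74842671-74842730 (minus). No exon annotation was used here.

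A further probe without a gene name, at chr15:75125848-75125907 on the plus strand, overlaps the Ly6c1 probe and reads the opposite strand. The next 3 sequences, all 5′ to 3′ and of 60 bases, show both probes of the Ly6c locus and this opposite-strand probe. Capitals mark the run of 44 bases that the Ly6c1 probe and the opposite-strand probe share as reverse complements.
Ly6c1 probe: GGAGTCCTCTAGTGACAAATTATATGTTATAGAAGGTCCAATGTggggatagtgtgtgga
opposite-strand probe: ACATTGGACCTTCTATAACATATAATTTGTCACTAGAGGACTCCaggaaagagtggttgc
second Ly6c probe: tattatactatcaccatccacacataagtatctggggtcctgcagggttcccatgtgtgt

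The Ly6a and Ly6c1 probes are shown because they resemble each other. In their best alignment without gaps, 33 of 40 bases were identical (82.5%), with a longest common run of 10 bases. Capitals mark the identical bases. No probe on the array shared a run of more than 15 bases with a member probe other than that of Ly6c1. For the Ly6c1 probe, only the longest run, that with the opposite-strand probe, was recorded.
Ly6a: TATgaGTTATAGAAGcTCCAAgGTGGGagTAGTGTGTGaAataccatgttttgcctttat
Ly6c1: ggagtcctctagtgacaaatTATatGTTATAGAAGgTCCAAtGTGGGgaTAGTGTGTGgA

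Values are log2 levels from the authors' table unless the scanner files are named, and each probe is compared only with itself. The table's background level was 6.8. Of the 48 cells of the 6 probes, 11 were empty, and they fell on the second Ly6c probe (4), Ly6e (5), Ly6i (1) and Ly6d (1). On the 5 arrays whose scanner file matches its table column (spleen 1 to 4 and blood 4), 99.5% to 100% of empty cells lay on spots with an outlying local background, and the scanner signal allowed 5 of the 11 to be restored. Empty cells were frequent among bright probes: 14.1% to 43.0% of the brightest 1% were empty on these arrays, against 1.22% to 2.67% among the dimmer probes below the array's median. The scanner files labelled blood 1, 2 and 3 do not match their columns, so the other 6 cells stay empty.

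None of the 4 member probes with enough values for a test passed the threshold between spleen and blood. In limma's test, 0 of these 4 had an adjusted p under 0.05 (threshold for a call), and 0 of all 25471 tested probes did (0%). At an unadjusted p under 0.05 there were again 0 of 4, against 5.57% of all tested probes. Spleen and blood values overlapped for each of the 4, while 3.25% of all tested probes had no overlap. The second Ly6c probe and Ly6e had too few values for the test.

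**Figure D1:**
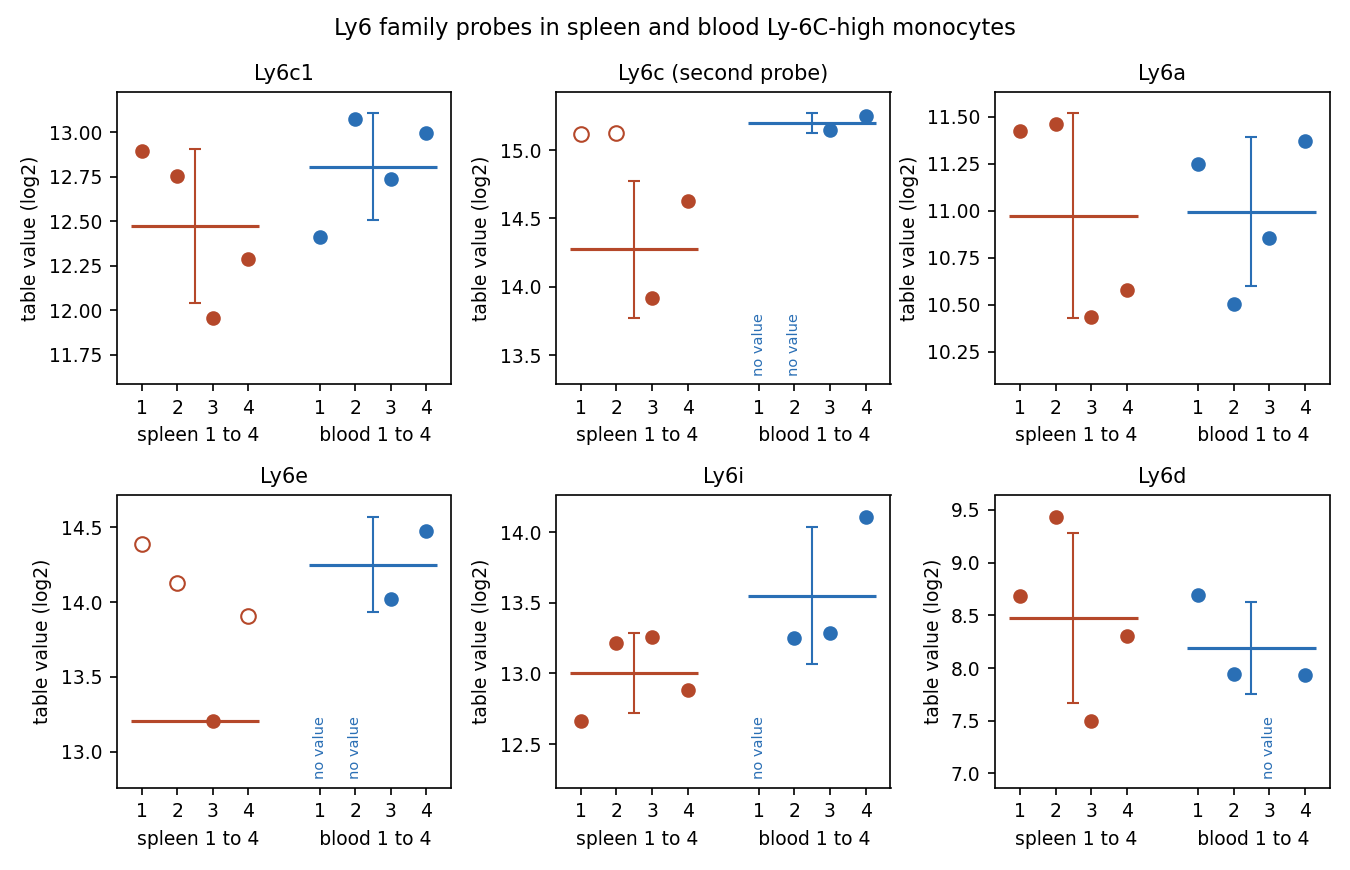
Table values (log2) of the 6 Ly6 probes in spleen 1 to 4 (red, left) and blood 1 to 4 (blue, right) of each panel, with filled points for deposited values, open points for restored empty cells, and lines and bars for the mean ± SD of deposited values. The tissues overlap for Ly6c1, Ly6a, Ly6i and Ly6d, and spleen 3 is the lowest spleen sample in every panel except that of Ly6i.

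The Ly6c1 probe was bright in every sample. Its levels were 12.89, 12.76, 11.96 and 12.29 in spleen 1 to 4, against 12.41, 13.08, 12.74 and 12.998 in blood 1 to 4. Spleen 3 and spleen 4 were the lowest of all 8, and spleen 1 and 2 lay inside the range of the blood samples. The means were 12.47 ± 0.43 in spleen and 12.81 ± 0.30 in blood (SD, n = 4 each). The difference of -0.33 ± 0.28 (SE), or 0.794-fold with a 95% interval of 0.517 to 1.22, did not pass limma's test (unadjusted p = 0.258, adjusted p = 1), and without spleen 3 it was -0.16.

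The opposite-strand probe, whose target RNA was not tested, covers part of the same stretch of the locus. It stood at 12.94, 13.45, 12.19 and 12.49 in spleen 1 to 4, against 12.68, 13.55, 13.14 and 13.37 in blood 1 to 4. The order of the samples was close to that of the Ly6c1 probe: over the 8 samples Pearson's r was 0.926 (exact permutation p = 0.00114, adjusted 0.00456) and Spearman's rho 0.881 (exact permutation p = 0.00724, adjusted 0.0145). Without spleen 3 and spleen 4, the 2 samples farthest from the Ly6c1 median, r was 0.765 over 6 samples. By r over all 8 samples, the opposite-strand probe ranked 9 among 17382 probes for likeness to Ly6c1. The samples are not fully independent, since both tissues came from the same 4 mice. The spleen minus blood difference of this probe was -0.42 ± 0.32 (SE, unadjusted p = 0.219 and adjusted p = 1 in limma).

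**Figure D2:**
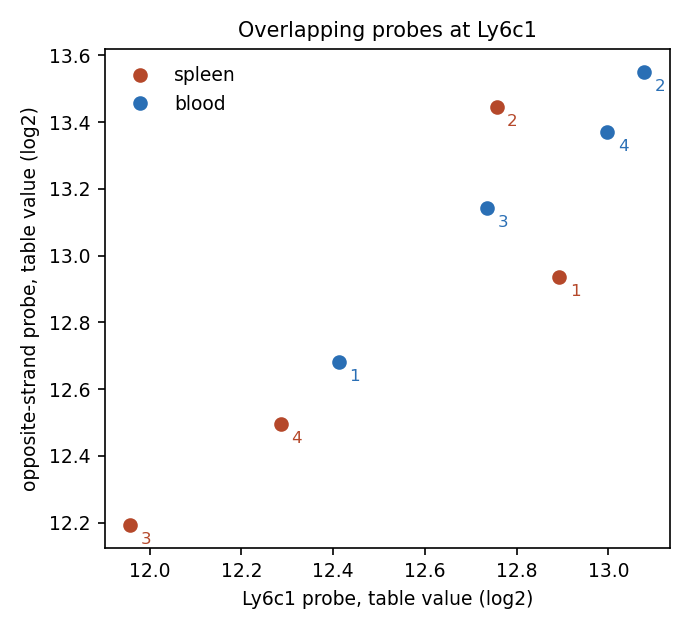
Level of the opposite-strand probe against that of the Ly6c1 probe (table values, log2) in 4 spleen samples (red) and 4 blood samples (blue), numbered by replicate. Spleen 3 is lowest on both axes and blood 2 highest on both.

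The second Ly6c probe had a deposited value on 4 of 8 arrays. These were 13.92 and 14.63 in spleen 3 and 4, against 15.15 and 15.25 in blood 3 and 4, so both spleen values were lower than both blood values by 0.92 on average. How many other probes with 2 values per tissue separate in this way was not counted. The second Ly6c probe was too sparse for the main test. With a minimum of 2 values per tissue and no filter on level, limma gave an unadjusted p of 0.0448 and an adjusted p of 1. In that setting 1957 of all 40974 tested probes had an unadjusted p under 0.05 in limma. The empty cells of spleen 1 and spleen 2 were restored at 15.12 and 15.13. With them the spleen mean was 14.70 ± 0.57 (SD, n = 4) and the blood mean 15.20 ± 0.07 (SD, n = 2), a difference of -0.50 (unadjusted p = 0.248, adjusted p = 1 in limma). The 2 spleen arrays left empty in the table were thus the 2 with the highest restored values, just under the lower of the blood values, and blood 1 and 2 remained without a value.

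Ly6a had nearly equal means in the tissues. It was measured at 11.42, 11.46, 10.43 and 10.58 in spleen 1 to 4, against 11.25, 10.50, 10.86 and 11.37 in blood 1 to 4. Spleen 1 and 2 lay above every blood sample, spleen 3 lay below every blood sample, and spleen 4 lay just above the lowest of them. The difference was -0.02 ± 0.32 (SE, unadjusted p = 0.948 and adjusted p = 1 in limma, and 0.16 without spleen 3), and the 95% interval of the ratio ran from 0.597 to 1.62. With 4 samples a tissue, a change within that interval was not excluded, and the interval is not a limit of detection. Although their probes resemble each other, Ly6a and Ly6c1 did not vary closely together (Pearson's r = 0.453, exact permutation p = 0.25, adjusted 0.334; Spearman's rho = 0.381, exact permutation p = 0.36, adjusted 0.36; 8 samples), and r was -0.32 without spleen 3 and spleen 4.

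Ly6e had the fewest deposited values, 1 in spleen and 2 in blood. Spleen 3 was at 13.20, against 14.02 in blood 3 and 14.47 in blood 4. Restored values were 14.39 in spleen 1, 14.13 in spleen 2 and 13.91 in spleen 4, which overlap the blood values. The deposited spleen value is therefore the lowest of the 4 spleen arrays. The difference of means was -1.05 from the deposited cells and -0.34 with the restored cells (unadjusted p = 0.401, adjusted p = 1 in limma), with no test on the table as deposited.

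Ly6i showed the lowest unadjusted p among the 4 tested members. Spleen 1 to 4 gave 12.66, 13.22, 13.26 and 12.88, against 13.25, 13.29 and 14.11 in blood 2, 3 and 4. Blood 4 stood clear of the spleen samples, blood 3 lay just above the highest of them and blood 2 within their range, and the cell of blood 1 was empty. The means were 13.003 ± 0.28 in spleen (SD, n = 4) and 13.55 ± 0.48 in blood (SD, n = 3). The difference of -0.55 ± 0.30 (SE), or 0.684-fold with a 95% interval of 0.425 to 1.103, did not pass limma's test (unadjusted p = 0.105, adjusted p = 0.966), and without blood 4 it was -0.27.

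Ly6d was the member nearest the background level and, within the spleen, the most variable of the 4 tested members. It read 8.68, 9.43, 7.49 and 8.31 in spleen 1 to 4, against 8.70, 7.94 and 7.93 in blood 1, 2 and 4. The spleen samples alone spanned a 3.83-fold range, which contained every blood value. The difference was 0.29 ± 0.45 (SE, unadjusted p = 0.537 and adjusted p = 1 in limma). It was -0.030 without spleen 2 and 0.62 without spleen 3, so its sign rests on 1 sample.

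**Figure D3:**
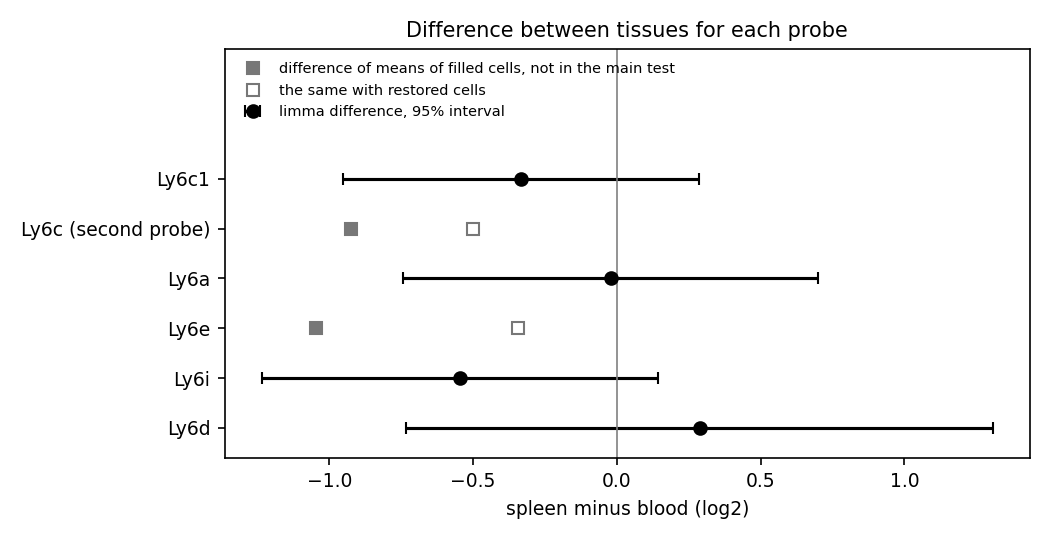
Spleen minus blood difference (log2) for each Ly6 probe, with black points and 95% intervals from limma for the 4 tested probes and grey squares for the 2 with too few values, filled for deposited cells and open with restored cells. All 4 intervals include 0, and both differences outside the main test shrink with the restored cells.

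Within the spleen, spleen 3 was the lowest of the 4 samples for 5 of the 6 member probes once empty cells were restored, and the highest for Ly6i. Over all tested probes with 4 spleen values, spleen 3 was the lowest in 28.9%. The mean of 9 monocyte markers was also lowest in spleen 3, at 11.09, against 11.37 to 11.56 in the other spleen samples and 11.29 to 11.49 in blood. Only 1 pair of arrays in the table, spleen 4 and blood 4, is known to share a slide. On that slide the spleen minus blood difference was -0.71 for Ly6c1, -0.62 for the second Ly6c probe, -0.79 for Ly6a, -1.23 for Ly6i and 0.38 for Ly6d, and -0.57 for Ly6e with its restored cell. The signs were those of the comparison over all samples, which includes this pair and so is not independent of it. For Ly6a the sign turned when 1 of the pair was left out, at 0.11 without spleen 4 and 0.10 without blood 4.

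Among the other genes, the patterns most like that of Ly6c1 over the 8 samples were those of Eif5b (Pearson's r = 0.96), a translation initiation factor, and Ap1g1 (0.953), a subunit of the AP-1 vesicle adaptor. Most like Ly6a were D1Ertd161e (0.978), Manea (0.962), a mannosidase of the Golgi, and Nfatc2 (0.961), a transcription factor of activated T cells. Each was picked as the highest among 17382 probes, and Manea lay just under the background level, at a mean of 6.76 in spleen and 6.795 in blood. The other member probes lacked 8 values and were not ranked.

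No relative of the members passed the test. Of 29 other Ly6/uPAR family genes on the array, 21 were above the background level often enough to be tested, 11 with a higher and 10 with a lower mean in spleen, and 0 passed the adjusted threshold or an unadjusted p under 0.05. Their median difference was 0.01, beside -0.01 over all 18266 tested genes. The smallest p-values were those of Cd177, a neutrophil surface protein, at 10.57 ± 0.42 in spleen and 10.16 ± 0.30 in blood, and of Slurp1, a secreted family member, at 7.34 ± 0.34 in spleen and 7.11 ± 0.23 in blood (SD, n = 4 each; adjusted p = 1 in limma for both). Ly6f, the family's neighbour in the same cluster, was at 9.41 ± 0.33 in spleen and 9.19 ± 0.55 in blood.

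Genes that build or process the GPI anchor showed no common direction. Of 28 tested, 17 had a higher and 11 a lower mean in spleen, with a median difference of 0.12 and 0 past the adjusted threshold in limma. At an unadjusted p under 0.05 there were 1 higher and 2 lower. Pigx, a subunit of the first mannosyltransferase, averaged 10.02 ± 0.46 in spleen and 9.04 ± 0.40 in blood (SD, n = 4 each). Pigl, the deacetylase of an early step, averaged 6.804 ± 0.10 in spleen, at the background level, and 7.51 ± 0.39 in blood (SD, n = 4 each).

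Interferon-stimulated genes, listed because Ly6a and Ly6e are themselves inducible by interferon, were mostly lower in spleen by their means. Of 43 tested, 38 had a lower and 5 a higher mean in spleen, with a median difference of -0.29. In limma 0 passed the adjusted threshold, and at an unadjusted p under 0.05 there were 9 lower and 1 higher, beside 413 lower and 554 higher of all 18266 tested genes. Ifi35, an interferon-induced leucine zipper protein, averaged 8.80 ± 0.27 in spleen and 9.89 ± 0.24 in blood, and Isg20, an exonuclease, 9.09 ± 0.92 in spleen and 10.89 ± 0.48 in blood (SD, n = 4 each). The mean over the 40 genes with 8 values was 10.30, 10.89, 10.16 and 10.26 in spleen 1 to 4, and 10.47 to 11.12 in the blood samples. Spleen 3 was the lowest spleen sample for this mean and for all the Ly6 probes but that of Ly6i. Spleen 1, close to spleen 3 and 4 by this mean, was the highest spleen sample for Ly6c1 and, with restored cells, for Ly6e. Spleen 2, the highest spleen sample for this mean, was also the highest for Ly6a, Ly6d and, with restored cells, the second Ly6c probe. Blood 2, the highest blood sample for this mean, had the lowest blood value of Ly6a and Ly6i and the highest of Ly6c1. The part of interferon-stimulated genes in the Ly6 values was not tested.

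Markers of other cells are relevant because a sorted sample can hold more than the gated type. Of 10 tested monocyte markers, 4 had a higher and 6 a lower mean in spleen, with a median difference of -0.04. Neutrophil markers had the widest gap of the 11 marker lists: 8 of 9 tested had a higher mean in spleen, the median difference was 2.59, and 7 had an unadjusted p under 0.05, though 0 passed the adjusted threshold in limma. Their mean level was 10.33 to 11.74 in the spleen samples and 7.26 to 8.73 in the blood samples, without overlap and highest in spleen 3. Ltf, a granule protein, averaged 13.88 ± 0.74 in spleen and 8.34 ± 1.39 in blood, and Lcn2, a siderophore-binding protein, 10.51 ± 0.99 in spleen and 6.53 ± 0.31 in blood, under the background level (SD, n = 4 each; adjusted p = 0.0651 in limma for both). B cell markers, of interest because early B lineage cells express Ly6d, had a higher mean in spleen for 6 of 7 tested genes, with a median difference of 0.16 and 0 past either threshold in limma. They averaged 7.06 to 8.13 over 6 genes in spleen and 7.28 to 7.597 in blood. Spleen 2, the highest spleen sample for Ly6d, was the lowest for these B cell markers. Blood 1, the highest blood sample for Ly6d, was also the highest blood sample for them. Plasmacytoid dendritic cells also express Ly6d, and the mean of 7 of their markers was highest in spleen 2 among the spleen samples. It was 9.93 there, against 9.52 to 9.76 in the other spleen samples. Spleen 1, the next highest spleen sample for Ly6d, had the lowest of these means, at 9.52. Among the blood samples the plasmacytoid mean was highest in blood 1, at 9.89 against 9.47 to 9.62, and blood 1 also had the highest blood value of Ly6d. The part of either cell type in the Ly6d values was not tested. The sort gate kept only cells low for Ly-6G and B220, antigens of neutrophils and B cells. A different share of such cells and a different amount of RNA per cell cannot be told apart in bulk samples, and the part of neutrophil markers in the Ly6 values was not tested.

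**Figure D4:**
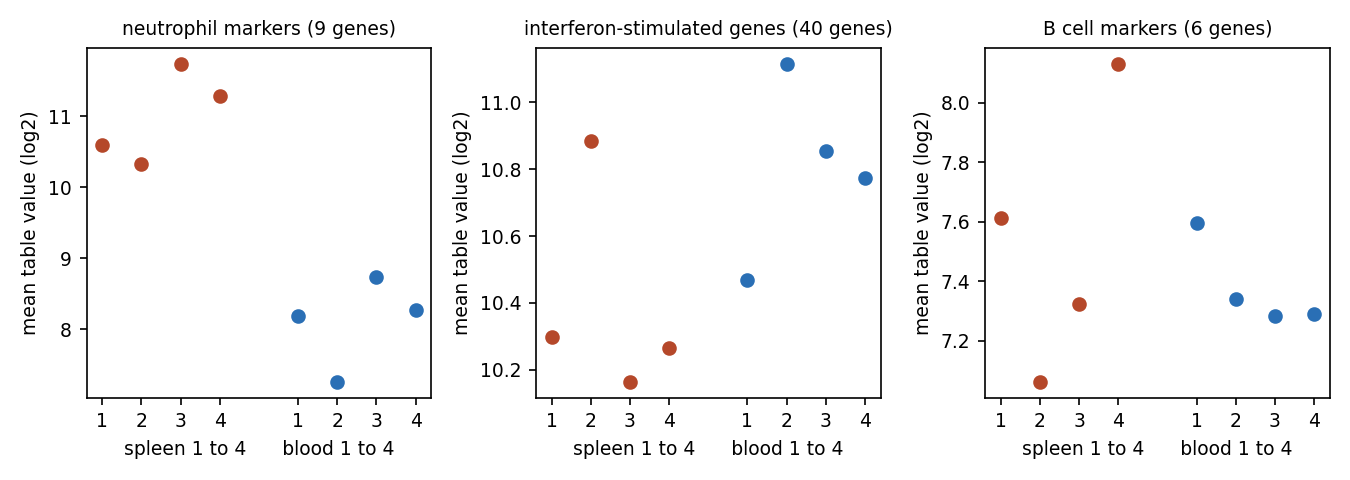
Mean table value (log2) of neutrophil markers (9 genes), interferon-stimulated genes (40) and B cell markers (6) in spleen 1 to 4 (red, left) and blood 1 to 4 (blue, right), over genes with 8 values. The tissues do not overlap for neutrophil markers, at 10.33 to 11.74 in spleen and 7.26 to 8.73 in blood, and overlap for the other lists.

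The scanner files give a separate view of the blood samples. All 6 member probes were well above background and unsaturated in all 8 files. In the 5 files that match the table, the Ly6c1 probe had a median spot signal of 9971, 6796, 3328 and 6526 in spleen 1 to 4 and 9542 in blood 4. In the files labelled blood 1, 2 and 3 it was 354.5, 518.5 and 359, although the label describes cells sorted for high Ly-6C. Relative to the 75th percentile of each array, the Ly6c1 probe stood at -0.73 to 0.31 in those 3 files and at 3.34 to 4.35 in the matching 5, a 19.3-fold ratio of the medians.

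Of the other member probes, the second Ly6c probe and Ly6i were also lower in these files without overlap. The second Ly6c probe stood at 3.22 to 4.27 in the 3 files and at 5.21 to 6.34 in the matching 5, and Ly6i at 2.31 to 3.02 in the 3 files and at 3.67 to 5.08 in the matching 5. Ly6a, at 0.87 to 3.74, covered the whole range of the matching files, 1.45 to 2.43. Ly6e stood at 4.44 to 4.88 in the 3 files and at 4.43 to 5.45 in the matching 5. Monocyte markers had a mean of 0.83 to 1.39 in the 3 files, against 2.44 to 2.80 in the matching 5, and B cell markers of 0.32 to 2.43, against -2.69 to -0.98. Plasmacytoid dendritic cell markers were also higher in the 3 files, at 0.71 to 1.13 against 0.06 to 0.50. Neutrophil markers were lower, at -4.37 to -2.74 against -1.69 to 2.92. T cell markers overlapped, at -1.46 to -0.67 against -1.85 to -1.21. The part of these cell types in the Ly6 signals was not tested. Which deposit holds the intended blood samples is not given in the sources used here, and the table was used for every comparison of spleen with blood above.

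**Figure D5:**
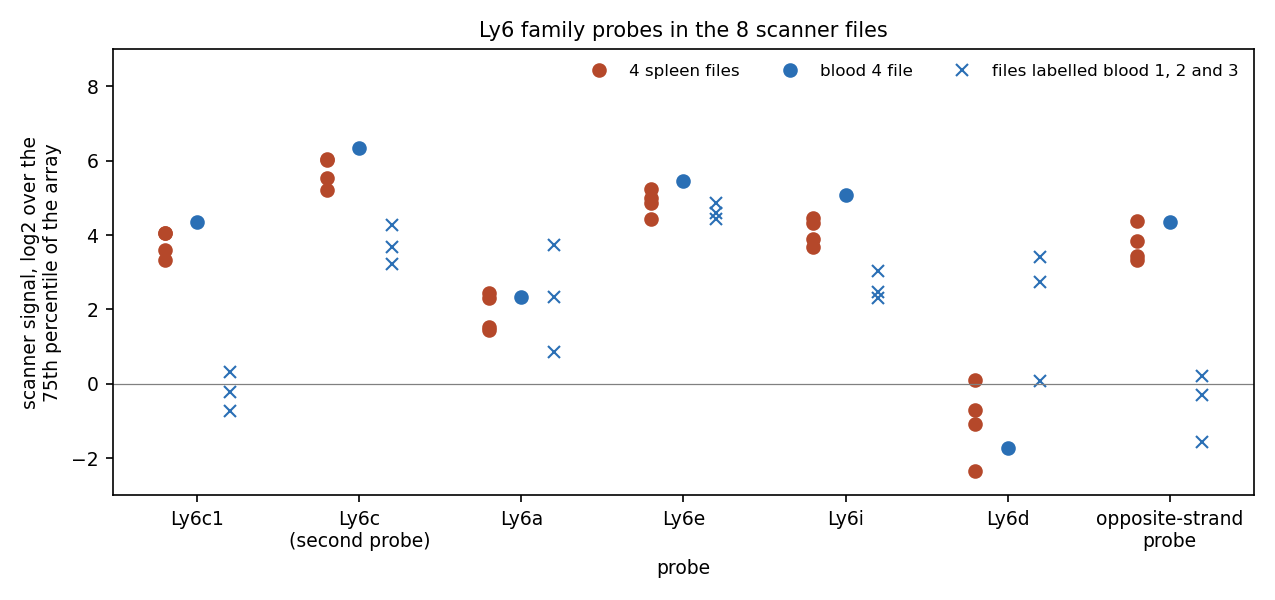
Scanner signal of the Ly6 probes (log2 over the 75th percentile of each array) in the 4 spleen files (red), the blood 4 file (blue points) and the files labelled blood 1, 2 and 3 (blue crosses). The crosses lie below the points for both Ly6c probes, the opposite-strand probe and Ly6i.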

How the data were processed

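The scanner files hold 1-colour spot intensity values that, per the file headers, were not normalized between arrays. The authors' deposited table holds log2 values, and the submitters' processing notes name limma. Its columns share 1 median (7.31) and rank probes as the median spot signal does, so they are read as quantile-normalized median signals. A file was taken to match its column at a rank correlation of at least 0.99, which held for 5 of 8 (0.842 to 0.872 for blood 1, 2 and 3). Probes were named by accession in RefSeq (22951 of 41174, tables of GRCm38.p6 used for names alone), otherwise by the file.

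Probes with at least 3 values per tissue and the background level (6.8) reached on at least 4 arrays were tested with limma 3.58.1 in R 4.3.3 (lmFit, eBayes), spleen minus blood, unpaired, with Benjamini-Hochberg adjustment over all tested probes at 0.05. The script was tested on simulated data. A gene list used each gene's brightest tested probe. Empty cells were restored from the median signal of the matching file (99th percentile of the error at most 0.0044). Between 26520 and 29562 probes per matching array passed the scanner's test against background, and precision is limited by how few arrays there are. Named genes are all members, for each member with 8 values the 3 most correlated genes, and from a list described the 2 with the smallest p; 1 gene that this rule names is not reported here. Not described, except as given in the closing section, are lists for NK cells, endothelium, stem cells, platelets and sort antigens. Lists for T cells and plasmacytoid dendritic cells are described only in part, without named genes. Members and lists were chosen with earlier results of these data known. Alternatives were other filters, scalings, blocks, sources, and samples left out in turn.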

Additional observations from a re-analysis of the deposited data

Results flagged for a closer look

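In the scanner files labelled blood 1, 2 and 3, which hold other arrays than the table and enter no comparison of spleen with blood on the table, Ly6d was brighter than in the matching blood file. Its signal relative to the 75th percentile of the array had a median of 2.73 and a range of 0.08 to 3.42 in these 3 files, against -1.72 in blood 4 and -2.33 to 0.09 over all 5 matching files. In the table, the mean of 5 erythroid markers was 8.36 in blood 3 and 8.90 to 8.96 in the other blood samples, a sample apart from its group. It was the only 1 of 36 groups of 4 samples checked, where chance gives about 1 in 20, and none of the Ly6 groups with 4 values (Ly6c1 and Ly6a in both tissues, Ly6i and Ly6d in spleen) had such a sample.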

How the results depend on the processing

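No member probe was called under any of the 24 alternatives. Their differences kept the sign in 89 of 103 refits. Many of these refits alter only the variance or which other probes are tested. Such a refit leaves a difference as it was, so the count overstates stability. The 14 turned signs come from 2 sources. With all 8 scanner files, which bring in the unmatched blood arrays, the differences at the 75th percentile and with normexp were 2.83 and 2.68 for Ly6c1, 1.33 and 1.23 for the second Ly6c probe, 0.87 and 0.72 for Ly6i, -2.13 and -1.95 for Ly6d, and 0.047 and -0.049 for Ly6e. Leaving out 1 sample in turn gave -0.19 to 0.16 for Ly6a, -0.030 to 0.62 for Ly6d, -0.47 to -0.16 for Ly6c1 and -0.70 to -0.27 for Ly6i. Ly6e, -1.05 as deposited, was -0.34 with restored cells, chosen after seeing the data, and -0.56 in the 5 matching scanner files. Replicate numbers are not stated to stand for mice. Deviations of same-numbered samples correlated at 0.0762, 0.119, 0.0764 and 0.0719, each spleen sample best with its own number, which is a hint from the data only. With the fixed replicate block the differences were -0.33 for Ly6c1, -0.02 for Ly6a, -0.43 for Ly6i and 0.62 for Ly6d, none called. Over the whole table, 0 calls became 1 with that block, 7 with a random replicate block (correlation 0.172), 9 with robust variance and an intensity trend, 7 with probes averaged per gene, 5 with either scanner setting of all files, and 0 to 2 with 1 sample left out. The cause was not tested. Without any 1 sample, the median of neutrophil markers stayed between 2.28 and 3.10 and that of interferon-stimulated genes between -0.48 and -0.21.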

Other observations

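Some lists were not described above, or only in part. Of these, sort antigens had 5 of 6 tested genes higher in spleen by their means, T cell markers 5 of 9 and NK cell markers 3 of 3. The counts were 4 of 8 for plasmacytoid dendritic cell markers, 3 of 6 for endothelial markers and 2 of 3 for stem and progenitor markers. They were 1 of 8 for platelet markers and 1 of 5 for erythroid markers. Over all 18266 tested genes, 48.8% had a higher mean in spleen. The median difference of sort antigens was 0.003, and the 1 with a lower mean was Ly6c1. In limma 0 genes of these lists passed the adjusted threshold, while 2 higher and 1 lower had an unadjusted p under 0.05. Itgax, the gene of the gated antigen CD11c, averaged 9.20 ± 0.76 in spleen and 7.39 ± 0.81 in blood, and Pf4, a platelet chemokine, 6.67 ± 0.37 in spleen, under the background level, and 9.33 ± 1.97 in blood (SD, n = 4 each). Alas2, the first enzyme of haem synthesis in red cells, averaged 8.01 ± 0.38 in spleen and 7.14 ± 0.20 in blood. The part of these cells in the Ly6 values was not tested.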
